A study of Mus musculus with 12 samples.

Results

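The genes described here are the cytokines Il6, Lif, Osm and Il10 and the receptor chains Il6ra, Il6st, Il10ra and Il10rb, 8 of the 55335 genes quantified by RNA-seq in GM-CSF bone marrow-derived dendritic cells (BMDCs). They were chosen by gene symbol, and each symbol belonged to 1 gene. All 8 passed the filter on low counts, Il10 through its LPS groups, since it had at most 5 counts in any unstimulated library.

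IL-6, LIF and oncostatin M belong to 1 cytokine family, and each of them signals through the shared receptor chain gp130, encoded by Il6st. IL-6 first binds its own receptor chain, encoded by Il6ra, whereas IL-10 binds a chain encoded by Il10ra that pairs with a chain shared with related cytokines, encoded by Il10rb. Both receptor systems activate JAK kinases and STAT3. Dendritic cells make IL-6 soon after they sense LPS, a bacterial cell wall component that acts through TLR4, and IL-6 supports Th17 differentiation, while IL-10 restrains inflammatory cytokine production.

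Bone marrow of C57BL/6 mice, males and females of 8 to 12 weeks, was cultured with GM-CSF for 6 days, and 4-hydroxytamoxifen (4-OHT) was given on the first day only. Floating cells that bound CD11c microbeads were kept as BMDCs, a selection made before LPS was added. WT cells came from CreER mice and CTCF-deficient (KO) cells from CreER;CTCF fl/fl mice, so that cells of both genotypes carried CreER, which is expressed from the widely active Rosa26 locus and was not restricted to dendritic cells. WTL and KOL denote the same cells after LPS at 100 ng/ml for 3 h, and each of the 4 groups had 3 libraries. The study asked how loss of CTCF, the zinc-finger protein that anchors chromatin loops, alters inflammatory gene expression in these cells. It is not clear from the study's text whether WT cultures also received 4-OHT, and if they did not, an effect of the drug cannot be told apart from that of the deletion. The study describes the 3 libraries of a group as biological replicates, without saying whether each came from its own mouse.

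Ctcf itself was lower in every library of the CTCF-deficient groups. Its normalized counts were 1051, 987 and 975 in WT, 570, 562 and 516 in KO, 886, 817 and 745 in WTL, and 564, 530 and 526 in KOL, so that the genotypes did not overlap with or without LPS. The KO mean was 54.7% of WT (log2 fold change -0.87), and the KOL mean was 66.2% of WTL (-0.59). A count over the whole gene is not a measure of the protein. The study reported efficient depletion of CTCF at the mRNA and protein levels, with its chromatin binding absent or strongly diminished. Normalized counts are expected counts scaled by TMM to the mean effective library size of the 12 libraries.

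Libraries held 12769773 to 16586334 expected counts. WTL replicate 2 stood apart in its ribosomal RNA share, 5.165% against at most 1.185% in the other libraries. All 10 dendritic cell markers were measured above the filter, while 4 of 7 T and NK cell markers, 2 of 5 B cell markers, 4 of 6 mast cell and basophil markers, 3 of 6 erythroid markers and 2 of 7 stromal markers stayed under 0.5 TPM in every library. Their summed TPM reached at most 3.74, 1.71, 4.59, 4.03 and 6.04 in these 5 lists. Some of their low members did move, with Pdgfrb (28.1 to 249.8 mean normalized counts, log2 fold change 3.14) and Gata2 (11.3 to 80.9, 2.82) higher and Cd8a (14.9 to 2.12, -2.71) lower in KO than in WT, and Pdgfrb (2.62) and Pdgfra (2.04) higher in WTL than in WT. Cd8a passed the filter on low counts through WT and WTL, and Pdgfra through the LPS groups, so their directions were tied to the filter. Of the 7 neutrophil markers tested, 6 were lower in KO than in WT and 5 were lower in KOL than in WTL, against 17.2% and 12.5% of all genes tested. Of these, Camp, Ltf and Ngp passed the filter on low counts through WT and WTL. Their mean normalized counts were 17.2, 45.9 and 75.5 in WT and 1.22, 4.00 and 3.70 in KO. Low values of these genes in the CTCF-deficient groups were thus tied to the filter, and the count of lower calls is a description only. Csf3r was higher in KO than in WT (213 to 367 mean normalized counts, log2 fold change 0.78). In KOL against WTL Csf3r had 0.04 and S100a8 0.00. The summed TPM of all 9 listed ran from 383 to 407 in WT, 207 to 238 in KO, 351 to 445 in WTL and 291 to 336 in KOL. The summed TPM of the 8 macrophage and monocyte markers was 902 to 943 in WT, 1281 to 1326 in KO, 763 to 925 in WTL and 897 to 1075 in KOL. In KO against WT 3 of these 8 were higher (Csf1r, Ly6c2 and Ccr2) and 4 lower (Adgre1, Mertk, Fcgr1 and Cd14), against 17.3% and 17.2% of all genes tested. The median log2 fold change of the 8 was -0.18. Among the 10 dendritic cell markers, Itgax was higher and H2-Ab1, H2-Aa, Flt3 and Ccr7 were lower in KO than in WT, against the same shares of all genes. Their summed TPM ran from 11423 to 12046 in WT, 7992 to 8298 in KO, 11360 to 15324 in WTL and 11672 to 16330 in KOL. In KOL against WTL Itgam, Flt3 and Csf2ra were lower, where 12.5% of all genes were called in each direction. Of the macrophage and monocyte markers, Ly6c2 and Ccr2 were higher and Mertk and Fcgr1 lower in KOL than in WTL. These markers were measured after the CD11c selection, the part of their shifts in the cytokine and receptor results was not tested, and in bulk RNA fewer cells of a type and less RNA per cell cannot be told apart.

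On mm10 with GENCODE M21, Il6 (ENSMUSG00000025746.11) lies at chr5:30013114-30019981 and Il10 (ENSMUSG00000016529.5) at chr1:131019845-131024974. Osm (ENSMUSG00000058755.3, chr11:4236420-4241026) and Lif (ENSMUSG00000034394.14, chr11:4257557-4272514) are neighbours, 16.5 kb apart, and all 4 cytokine genes are on the plus strand. The receptor genes are spread over 4 chromosomes, with Il6ra (ENSMUSG00000027947.11) at chr3:89864059-89913196 on the minus strand, Il6st (ENSMUSG00000021756.12) at chr13:112464070-112510086, Il10ra (ENSMUSG00000032089.16) at chr9:45253837-45269149 on the minus strand and Il10rb (ENSMUSG00000022969.13) at chr16:91406164-91425834. Annotated genes that overlap Il6ra, Il10ra or Il10rb had at most 11 counts in any library, where the receptor genes themselves had at least 139.

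Promoter sequences from RefSeq (GRCm38.p6, the mm10 assembly) were at hand for 4 of the 8 genes. Those of Il6, Lif and Il6ra are shown because these 3 genes differed between KO and WT cells. They run 5′ to 3′ on the strand of the gene and end at the base before the gene's annotated start, at chr5:30012864-30013113 (+), chr11:4257318-4257556 (+) and chr3:89913197-89913446 (-). Capitals mark matches to the motifs searched on both strands.
Il6: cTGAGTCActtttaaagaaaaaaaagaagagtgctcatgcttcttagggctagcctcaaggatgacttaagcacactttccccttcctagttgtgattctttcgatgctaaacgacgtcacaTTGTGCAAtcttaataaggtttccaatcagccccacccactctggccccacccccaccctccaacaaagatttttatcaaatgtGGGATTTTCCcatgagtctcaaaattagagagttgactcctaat
Lif: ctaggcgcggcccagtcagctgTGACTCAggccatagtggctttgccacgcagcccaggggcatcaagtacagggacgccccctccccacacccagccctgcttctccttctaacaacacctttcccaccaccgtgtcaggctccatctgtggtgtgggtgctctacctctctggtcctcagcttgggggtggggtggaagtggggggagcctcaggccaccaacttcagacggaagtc
Il6ra: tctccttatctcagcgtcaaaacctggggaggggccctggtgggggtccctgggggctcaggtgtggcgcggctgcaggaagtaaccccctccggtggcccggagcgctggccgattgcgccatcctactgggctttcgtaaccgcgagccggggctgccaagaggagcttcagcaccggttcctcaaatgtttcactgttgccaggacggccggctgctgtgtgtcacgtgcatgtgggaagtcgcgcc
In the Il6 promoter the capitals are, in order, an AP-1 motif (TGAGTCA, first base 249 bases before the RefSeq start), a C/EBP motif (TTGTGCAA, 128 bases before) and an NF-κB motif (GGGATTTTCC, 44 bases before). None of these 3 matches overlaps another. The Lif stretch holds 1 AP-1 match (TGACTCA, 228 bases before the RefSeq start, which lies slightly downstream of the GENCODE start where the printed stretch ends), and the AP-1 letters read as a match on both strands. The Il6ra and Il6st windows hold no letters of the NF-κB motif, of AP-1 (searched as TGANTCA), of C/EBP (TTNNGCAA), of STAT (TTCNNNGAA), of the CTCF consensus or of the TATAAA box. Among all 32851 promoters of the table, 3.9% held the NF-κB motif, 6.75% the AP-1 motif, 9.56% the C/EBP motif and 0.508% the CTCF motif. GC content was 42.8% in the Il6 stretch against 62.8% for Lif, 65.2% for Il6ra and 66% for Il6st, with a median of 52.4% over all promoters. A match is a description of the letters and not a measured binding site.

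LPS raised Il6, Lif and Il10 and lowered Il6ra and Il6st in WT cells, and the same 5 genes moved in the same directions in KO cells. Osm passed the threshold in KO cells and not in WT cells, and the difference between these responses had an interaction of 1.31 (SE 0.21, adjusted p = 7.5e-04). A gene was called where the adjusted p of edgeR's quasi-likelihood test was under 0.05 and the fold passed the study's own cutoff, set at 2 for the LPS comparisons, at 1.3 between unstimulated genotypes and at 1.5 after LPS. Of the 8 genes, 4 rose and 2 fell in WTL against WT, where 22.6% of the 14008 genes tested were called, 12.6% up and 9.99% down. In KOL against KO, 4 rose and 2 fell, where 28.1% of genes were called, 15.1% up and 13.0% down. The median log2 fold change of the 8 genes was 0.88 in WT and 1.11 in KO cells, and that of all genes was -0.02 in both. Among all genes tested, 1766 rose and 1400 fell with LPS in WT cells and 2113 and 1819 in KO cells, a split that became 770 and 1975 in WT and 932 and 2178 in KO with limma on log2(TPM + 1), which compares shares of the RNA with no further scaling.

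**Figure D1:**
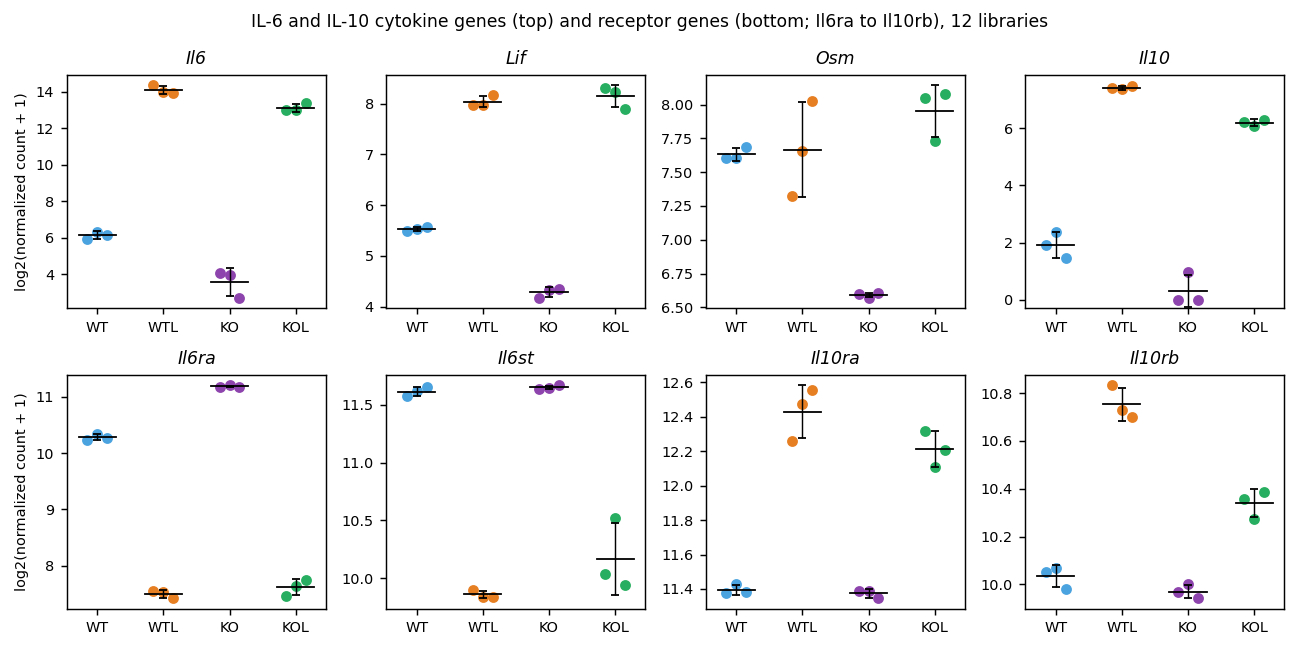
Normalized counts of the 8 genes in all 12 libraries, as log2(normalized count + 1) on the y axis, with 1 point a library, the group on the x axis, and the group mean and SD (n = 3) as a horizontal line and bars; the y axes differ between panels. Il6, Lif and Il10 are high in both LPS groups, Il6ra and Il6st are low in both, and all 4 cytokine genes are lower in KO than in WT.

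Il6 had the widest range of the 8 genes. Its normalized counts were 60.6, 80.5 and 70.0 in WT and 21202, 16185 and 15793 in WTL. That is a rise of 7.97 on the log2 scale, or 251-fold (SE 0.21, adjusted p = 4.5e-13 by edgeR). In KO they were 16.2, 14.4 and 5.56, and in KOL 8106, 8338 and 10628, a rise of 9.53 (SE 0.24, adjusted p = 2.5e-13). The 4 groups did not overlap, and each CTCF-deficient group lay below the WT group given the same treatment. KO cells held 17.1% of the WT level (log2 fold change -2.54, SE 0.30, adjusted p = 7.6e-06), from only 39 counts over 3 libraries. KOL cells held 50.9% of the WTL level (-0.97, SE 0.14, adjusted p = 7.7e-05), and that call was lost with limma on log2(TPM + 0.1), with a log2 fold change of -1.01 and an adjusted p of 0.064.

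The log2 response of Il6 to LPS was larger in KO than in WT cells, by 1.56 (SE 0.34, adjusted p = 0.0062 for the interaction). In normalized counts LPS added 17656 ± 3016 in WT and 9012 ± 1394 in KO cells, 51% of the WT gain. Here ± is the square root of the summed variances of the LPS and unstimulated groups, with n = 3 libraries each. Fold and gain thus ordered the genotypes in opposite ways. On log2(TPM + 1) with limma the interaction was 1.00 with an adjusted p of 0.082, on the other side of the threshold.

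Lif, which signals through gp130 and the LIF receptor chain, was a low gene throughout. It had normalized counts of 44.1, 45.3 and 46.7 in WT, 251, 250 and 286 in WTL, 17.1, 19.2 and 19.5 in KO, and 316, 301 and 238 in KOL. The unstimulated genotypes were apart, and the LPS groups overlapped. KO cells held 40.9% of the WT level (log2 fold change -1.28, SE 0.18, adjusted p = 5.6e-05). LPS raised Lif by 2.53 in WT (SE 0.13, adjusted p = 5.9e-10) and by 3.93 in KO cells (SE 0.15, adjusted p = 2.1e-11), both as log2 fold changes. After LPS the difference between KOL and WTL was 0.12 with a 95% interval from -0.12 to 0.35 (adjusted p = 0.42), so a KOL level of about the WTL level or slightly above it was compatible with these libraries.

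Osm, the gene next to Lif, had normalized counts of 194, 194 and 205 in WT and 159, 200 and 259 in WTL. LPS gave no difference that could be detected in WT cells, with a log2 fold change of 0.07 (95% interval -0.23 to 0.38, adjusted p = 0.68). WTL replicates spread over both sides of the WT values, and the direction turned without WTL replicate 3 (-0.13) and on log2(TPM + 1) with limma (-0.46). In KO the counts were 96.0, 94.1 and 96.3, and in KOL 264, 212 and 269. KO cells thus held 48.4% of the WT level (-1.05, SE 0.15, adjusted p = 6.2e-05), and LPS raised them by 1.38 (SE 0.15, adjusted p = 1.9e-06), which was under the 2-fold cutoff with limma on log2(TPM + 1) (0.65). KOL and WTL overlapped, with a difference of 0.26 (95% interval -0.05 to 0.57).

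Il10 was close to undetected before LPS. Expected counts were 3, 5 and 2 in WT and 0, 1 and 0 in KO, against 124, 151 and 168 in WTL and 68, 57 and 73 in KOL. As normalized counts the LPS groups were 167, 164 and 179 in WTL and 73.1, 66.7 and 78.0 in KOL. All KOL libraries were below all WTL libraries, at 42.7% of the WTL level (log2 fold change -1.22, SE 0.16, adjusted p = 3.0e-05). Summed over libraries and corrected for library size, the counts of WTL were 58.5 times those of WT, with an exact 95% interval of 31.5 to 123, and those of KOL were 235 times those of KO, with an interval of 41.8 to 9346 because KO held 1 count in all. These intervals cover counting error only.

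Before LPS, Il10 counts in KO were 0.106 times those in WT, with an exact 95% counting interval of 0.00245 to 0.747. The fitted log2 fold change was -2.80 (SE 0.78, adjusted p = 0.014) and the call was lost without WT replicate 2 (-2.47, adjusted p = 0.074), KO replicate 1 (-2.34, 0.071) or KO replicate 3 (-2.36, 0.068). Without KO replicate 2, which held the single KO count, KO against WT had a fitted value of -4.60, and KOL against KO one of 9.18, where all libraries gave 7.39. Whether the LPS response of Il10 differed between genotypes could not be shown, with an interaction of 1.58 and a 95% interval from -0.12 to 3.28 (adjusted p = 0.28), which turned to -0.80 on log2(TPM + 1) with limma. LPS added 167 ± 7.95 normalized counts (± as for Il6, n = 3 per group) in WT and 72.3 ± 5.67 in KO cells, 43.3% of the WT gain.

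Il6 and Il10 were thus both lower in KOL than in WTL, and the balance between them was compared in each library as the ratio of their TPM. WTL libraries gave ratios of 150, 106 and 94.5, and KOL libraries 119, 140 and 149. The groups overlapped, and the difference of their log2 means, 0.24, had p = 0.4 in a two-sided exact permutation test, where 3 against 3 libraries cannot go below 0.10.

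Il6ra, the IL-6-binding receptor chain, fell where Il6 rose with LPS, and was higher where Il6 was lower in KO against WT. Its normalized counts were 1207, 1294 and 1239 in WT and 187, 185 and 171 in WTL, 14.5% of the WT level (log2 fold change -2.78, SE 0.08, adjusted p = 1.5e-12). In KO they were 2315, 2350 and 2316, and in KOL 176, 200 and 215, 8.47% of the KO level (-3.56, SE 0.08, adjusted p = 1.0e-13). KO cells therefore held 187% of the WT level before LPS (0.90, SE 0.07, adjusted p = 1.3e-07). After LPS the genotypes overlapped, with a difference of 0.12 (95% interval -0.07 to 0.31, adjusted p = 0.29). The fall was larger in KO cells, with an interaction of -0.78 (SE 0.11, adjusted p = 3.5e-04).

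Il6st, which encodes gp130, also fell with LPS but not by genotype before it. Normalized counts were 3047, 3136 and 3214 in WT, 952, 916 and 916 in WTL, 3182, 3210 and 3251 in KO, and 1048, 1466 and 984 in KOL. The log2 fold change with LPS was -1.75 in WT (SE 0.12, adjusted p = 8.3e-09) and -1.46 in KO cells (SE 0.11, adjusted p = 4.4e-08). WT and KO overlapped, at a difference of 0.04 (95% interval -0.20 to 0.27). All 3 KOL libraries lay above the WTL libraries, and the difference of 0.33 had an adjusted p of 0.031 by edgeR but was under the 1.5-fold cutoff.

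The IL-10 receptor genes were higher after LPS in both genotypes, with folds near or under the cutoff of 2, although Il10rb turned direction in KO cells on unscaled TPM. Il10ra had 2657, 2757 and 2666 normalized counts in WT, 4912, 5684 and 6025 in WTL, 2677, 2678 and 2603 in KO, and 5106, 4414 and 4732 in KOL. Its log2 fold change was 1.04 in WT (SE 0.08, adjusted p = 4.8e-08) and 0.84 in KO cells (adjusted p = 3.9e-07), so that the first lay just past the 2-fold cutoff and the second just under it. The WT call was lost without WT replicate 1 (0.95), WT replicate 2 (0.98), WT replicate 3 (0.96) or WTL replicate 3 (0.97), and with limma on log2(TPM + 1) (0.50). The responses were not shown to differ (interaction -0.20, adjusted p = 0.25), and KO was at 98.5% of WT with overlapping libraries.

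Il10rb, the chain shared among IL-10 relatives, had normalized counts of 1061, 1073 and 1010 in WT, 1822, 1699 and 1661 in WTL, 999.5, 1023 and 985 in KO, and 1312, 1237 and 1339 in KOL. KOL libraries all lay below WTL libraries, at 75% of their level (log2 fold change -0.41, SE 0.07, adjusted p = 1.4e-04), which was under the 1.5-fold cutoff. WT and KO overlapped. The log2 fold change with LPS was 0.72 in WT and 0.37 in KO cells, the latter turning to -0.12 with limma on log2(TPM + 1). The interaction of -0.35 (SE 0.09, adjusted p = 0.019) lost its call without WT replicate 1 (-0.29), WT replicate 2 (-0.30), WT replicate 3 (-0.26) or KO replicate 2 (-0.33).

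**Figure D2:**
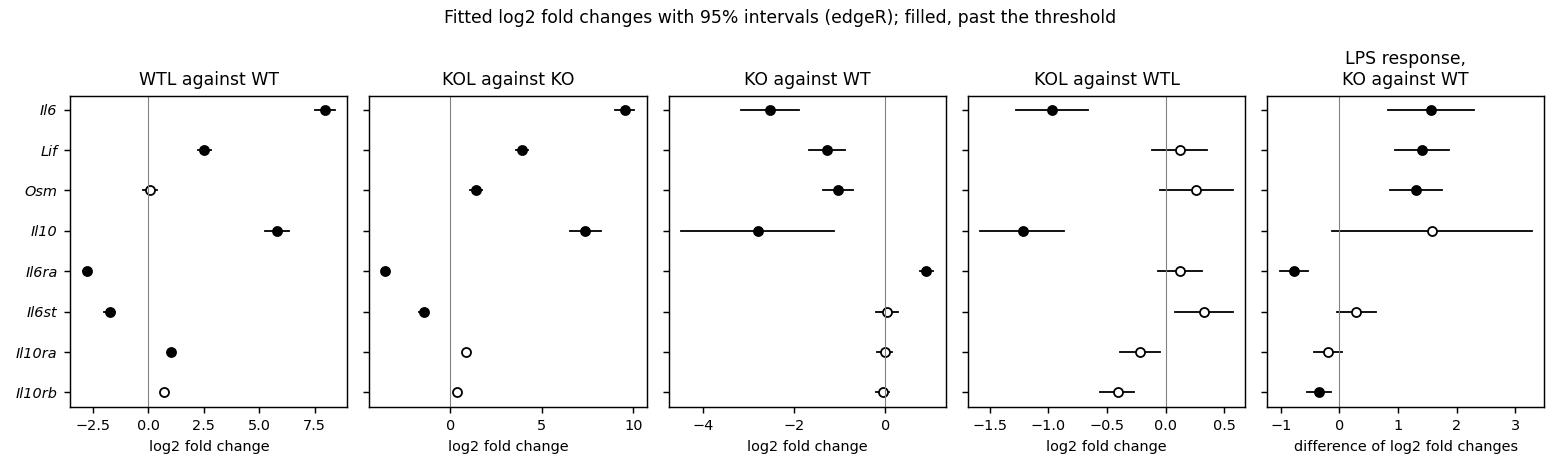
Fitted log2 fold changes of the 8 genes (x axis; the last panel gives the difference between the log2 LPS responses of KO and WT) with 95% intervals as lines, over 4 comparisons and the interaction; filled points passed the threshold and the x axes differ between panels. All 4 cytokine genes are below 0 in KO against WT, and after LPS the calls are Il6 (-0.97) and Il10 (-1.22).

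Across KO against WT, Il6, Lif and Osm were called lower, and 1 of 4 receptor genes, Il6ra, was called higher. Il10 was also called lower, but it passed the filter through its LPS groups and its call rests on 10 counts against 1 and is lost on leaving out any 1 of the 3 libraries named above. In that comparison 34.5% of all genes tested were called, 17.3% up and 17.2% down. In KOL against WTL, 2 of the 8 genes were called, both lower, where 25.0% of genes were called and 12.5% were called lower. The share of the 8 genes called after LPS was therefore near that of the whole table. The interaction was called for 5 of the 8 genes, 3 higher and 2 lower, where 17.4% of genes were called, 8.70% higher and 8.75% lower. Among all genes tested, 2427 rose and 2405 fell in KO against WT, and 1556 and 2524 with limma on log2(TPM + 1). The interaction split 1218 higher and 1225 lower, and 949 and 603 with limma on log2(TPM + 1).

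Levels of different genes can be compared only per length, and for that the TPM was used. In WT the mean TPM ran from Il10ra (79.3 ± 1.89, SD, n = 3) and Il10rb (62.9) through Il6st (40.2), Il6ra (16.4), Osm (9.75), Il6 (7.28) and Lif (1.18) to Il10 (0.257). No neighbours in that order overlapped. After LPS Il6 stood first in both genotypes, at 1218 ± 319 in WTL and 595 ± 77.5 in KOL, and Il6ra stood last at 1.57 and 1.74. Il10 stood just below Il10rb in WTL (10.5) and just below Lif in KOL (4.38 against 5.45, overlapping), and Il6st and Osm overlapped in both LPS groups. In KO the order was as in WT, but Il6 (1.14) and Lif (0.457) overlapped and the gap between Il6st (34.9) and Il6ra (30.3) was narrow. TPM of Il6 in KO is uncertain, since the deposited effective length of the gene ran from 722 to 1260 bases over those libraries.

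**Figure D3:**
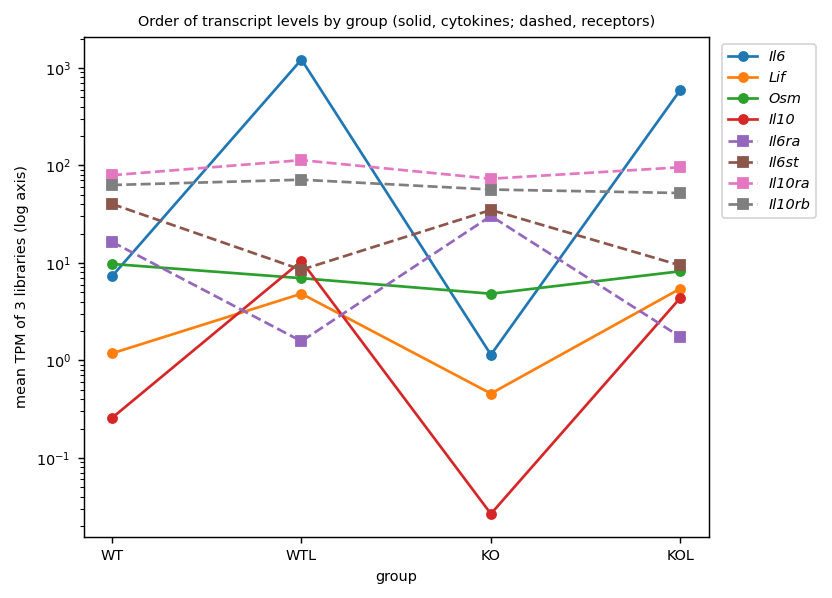
Mean TPM of 3 libraries on a log axis for each gene in each group, with cytokine genes as solid lines and circles and receptor genes as dashed lines and squares; lines join the groups only to guide the eye. The IL-10 receptor genes lead before LPS, and Il6 leads after it at 1218 TPM in WTL and 595 in KOL.

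The genes whose log2 normalized counts followed each gene most closely over the 12 libraries are given as a description. For Il6 they were Rtp4, Ifi47 and Trim12c, each with Pearson's r of 0.998. For Lif they included Plppr4 (0.997) and Xaf1 (0.996), for Osm Avpi1 (0.980), Arl4c and Ramp3 (0.976), and for Il10 Plat (0.998), Isg20 (0.995) and Tent4a (0.994). For the receptors the closest were Nfic and Klhl24 for Il6ra (0.997), Cd300a for Il6st (0.993), Tagln2 for Il10ra (0.997) and Actr3 for Il10rb (0.994). The 12 points share 4 group means, so that any gene with a like order of groups scores high.

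Among the other IL-6 family ligands, 5 of 9 were tested, and 4 rose with LPS in both genotypes, where 12.6% of all genes tested rose in WT and 15.1% in KO cells. Il27 passed the filter through its LPS groups. Il27 and Ebi3, which encode the subunits of IL-27, rose from 7.88 to 1390 and from 501 to 2210 mean normalized counts in WT cells, and from 5.88 to 983 and from 803 to 3232 in KO cells. Ebi3 was the only one of the 5 called in KO against WT (log2 fold change 0.68, adjusted p = 0.0022). In KOL against WTL, Il27 (log2 fold change -0.50, adjusted p = 1.9e-04) and Ebi3 (0.55, adjusted p = 0.0068) were under the 1.5-fold cutoff. Of 6 other receptors, 4 were tested, and with LPS in WT cells Il11ra1 had a log2 fold change of -0.05, Il27ra -0.71 and Lifr 0.23, all under the 2-fold cutoff. In KO against WT, 3 were higher (Il11ra1, Lifr and Il31ra) and Il27ra was lower, against 17.3% and 17.2% of all genes. Lifr, the LIF receptor chain, went from 50.3 in WT to 205 in KO (2.02, adjusted p = 4.2e-09) and from 59.2 in WTL to 131 in KOL (1.15, adjusted p = 3.1e-06). Lif and its receptor gene thus differed in opposite directions between KO and WT.

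None of the 6 other IL-10 family ligands had enough counts to be tested, and 2 of 5 other receptors did. Il20rb, a chain of the IL-20 receptors, rose with LPS in WT from 181 to 382 (1.08, adjusted p = 5.5e-08) and was lower by genotype, at 96.4 in KO and 155 in KOL. Ifnlr1, which pairs with the Il10rb chain to bind interferon lambda, was higher, from 81.9 in WT to 193 in KO (1.23) and from 49.9 in WTL to 107 in KOL (1.09).

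Of 11 signalling genes just below the receptors, 3 rose and 1 fell with LPS in each genotype, Jak2 and Stat3 among the former and the adaptor Gab1 the latter, where 22.6% of all genes were called in WT and 28.1% in KO cells. In KO against WT 3 were lower, among them Jak2 (5728 to 4043, log2 fold change -0.50) and Gab1 (-0.93), and Grb2 (0.65) was higher, a share near the 34.5% of all genes called, whereas Stat3 had 0.22, under the 1.3-fold cutoff. After LPS only Gab1 of the 11 passed the threshold between genotypes (-0.75, adjusted p = 0.0047), where 25.0% of all genes were called. Stat3 lay just under the 1.5-fold cutoff there, at 5650 in WTL and 8423 in KOL (0.58, adjusted p = 4.7e-05). Its log2 response to LPS was larger in KO cells (interaction 0.36, adjusted p = 0.044). The median of the 11 was -0.07 in KO against WT and -0.11 in KOL against WTL, with medians over all genes of -0.01 and -0.04.

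Of 7 feedback inhibitors, 4 rose with LPS in WT and 5 in KO cells, against 12.6% and 15.1% of all genes. Socs3, which blocks gp130 signalling, rose from 322 to 6689 in WT (4.38, SE 0.08) and from 410 to 3956 in KO cells (3.27, SE 0.07). It was lower in KOL than in WTL (-0.76, adjusted p = 3.5e-07), and its response was smaller (interaction -1.11, adjusted p = 6.0e-06). In KO against WT it had 0.35, under the 1.3-fold cutoff, as did Socs2 with 0.09 and Ptpn6 with -0.32. Socs2 was higher in KOL than in WTL (0.69, adjusted p = 1.6e-05). Of 9 genes listed as IL-10 and STAT3 targets, a list that shares Socs3, Nfil3 and Zfp36 with the others, 2 were higher (Nfil3 and Ddit4) and 2 lower (Socs3 and Bcl3) in KOL against WTL, where 12.5% of all genes were called in each direction, and Il1rn, the IL-1 receptor antagonist, had 33192 in WTL and 39014 in KOL (0.23, adjusted p = 0.051).

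The list of genes that act on Il6 transcription or mRNA held 10, all tested. With LPS 6 rose in WT and 7 in KO cells, against 12.6% and 15.1% of all genes. Nfkbiz, which encodes the nuclear factor IκBζ that Il6 transcription needs, was lower in KO than in WT (794.6 to 270.5, log2 fold change -1.55, adjusted p = 7.9e-10) and in KOL than in WTL (8254 to 3489, -1.24, adjusted p = 4.0e-09). Cebpd (-0.86) and Zc3h12a (-0.76), whose product degrades Il6 mRNA, were also lower in KOL than in WTL, and Zfp36 (-0.89) was lower in KO than in WT. Of the 10, 2 were called in KO against WT and 3 in KOL against WTL, all lower. Among all genes 34.5% and 25.0% were called in these comparisons, 17.2% and 12.5% lower. Rel (0.05), Nfkb1 (-0.19) and Rela did not pass the threshold in KOL against WTL.

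Of 8 genes that act on Il10 transcription, Maf rose with LPS in WT from 82.8 to 384 (2.21, adjusted p = 1.2e-08) and in KO cells from 133 to 280 (1.07, adjusted p = 1.4e-05), with a smaller response in KO (interaction -1.14, adjusted p = 0.002). Nfil3 was the only one of the 8 called between the genotypes after LPS, where 25.0% of all genes were called. It went from 244 in WTL to 520 in KOL (1.08, adjusted p = 4.2e-06). Of 4 genes that shed the IL-6 receptor from the cell surface, 3 were higher in KO than in WT, against 17.3% of all genes. They were the protease gene Adam17 (4703 to 7336, 0.64) and Rhbdf1 (1.51) and Rhbdf2 (0.55), which encode the iRhom partners of ADAM17. Adam10, the other protease gene, had 0.23, under the 1.3-fold cutoff. In KOL against WTL only Rhbdf1 was called (1.44), where 25.0% of all genes were called. Rhbdf1 was a low gene, from 9.58 mean normalized counts in WT to 72.4 in KOL. Adam17 (-0.13), Rhbdf2 (-0.33) and Adam10 (-0.32) were under the 1.5-fold cutoff after LPS. Il6ra was itself higher in KO than in WT.

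**Figure D4:**
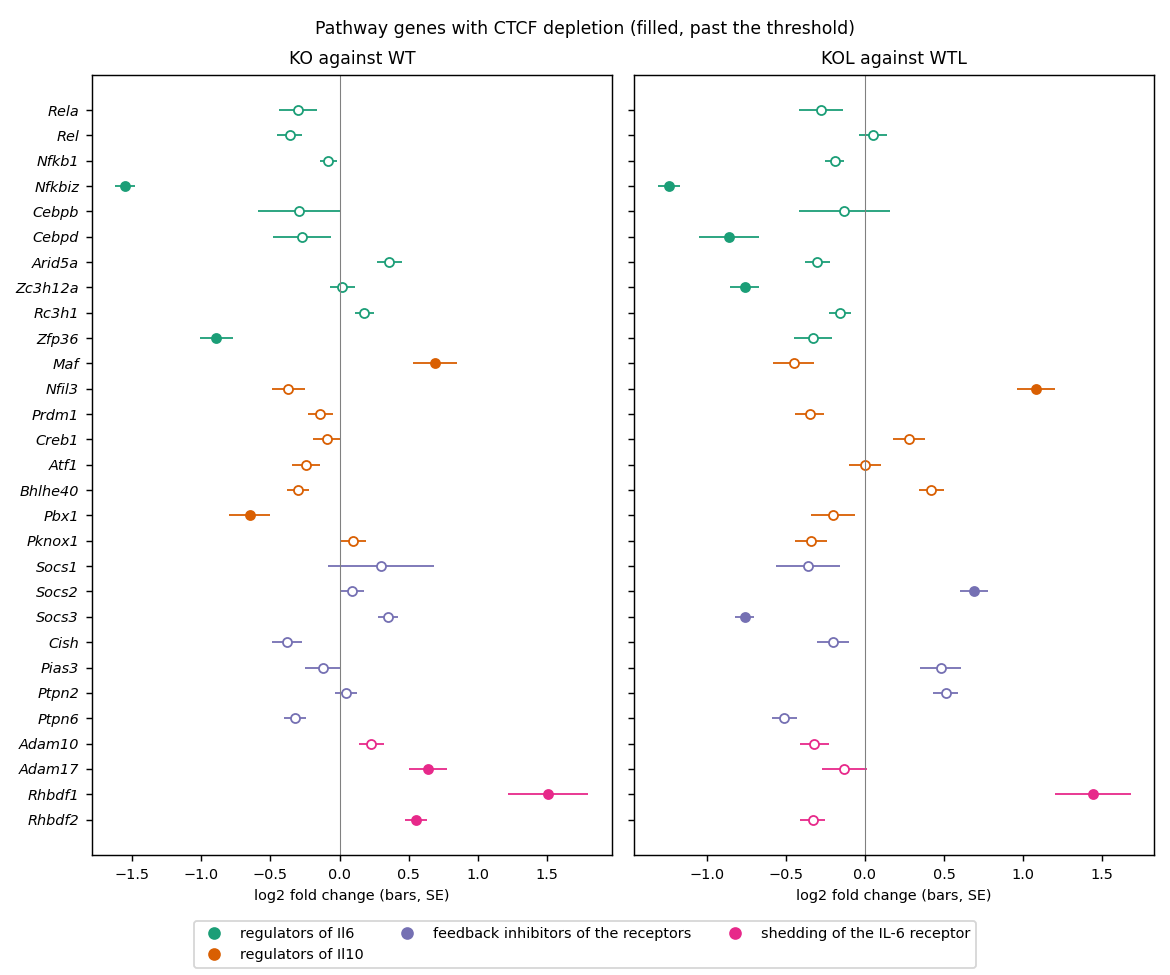
Log2 fold changes (x axis, bars SE) of the genes that act on Il6 or Il10, of feedback inhibitors and of IL-6 receptor shedding, in KO against WT and KOL against WTL; filled points passed the threshold. Nfkbiz stands lowest in both panels at -1.55 and -1.24, and Rhbdf1 highest at 1.51 and 1.44.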

How the data were processed

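RNA of 12 BMDC libraries, 3 in each of 4 groups, was sequenced by the study. The authors used Trim Galore for trimming, STAR for alignment to mm10 and RSEM for quantification. The submitters' processing notes give STAR 2.5.1, and the study's reporting summary names a later release. They deposited for each gene and library an expected count (RSEM's estimate of reads, often fractional), the TPM, which keeps no depth, and the effective length. The study's methods name a stranded poly(A) kit, the labels name ribosomal RNA depletion, and strand use in counting is not given in the sources used here. An expected count of 1 equals 0.839 to 1.35 normalized counts.

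Expected counts were rounded and fitted with edgeR 4.0.16 (R 4.3.3; filterByExpr, TMM, quasi-likelihood, 1 coefficient a group, Benjamini-Hochberg over 14008 genes). DESeq2 1.42.0, limma 3.58.1 on TPM, other filters, a replicate block and leaving out libraries were alternatives. The TPM fit scaled to a common median was added after seeing the data. The fitting code was tested on simulated data. Members and lists were chosen with earlier results of these data known. The 8 genes and Ctcf were named throughout; from each list, by the rule, the 3 genes of highest level and those with an absolute log2 fold change of at least 2. Other list genes called were named after their values were seen. Neighbours were the 3 nearest protein-coding genes on each side, and like genes the 3 highest r among genes with at least 100 normalized counts. No replicates were merged, as all pairs of a group exceeded counting noise (chi-square over degrees of freedom from 1.66 to 77.74). This value ran from 1.66 to 1.86 in KO, 3.14 to 4.45 in WT, 8.07 to 28.51 in KOL and 28.31 to 77.74 in WTL. The fit shared its estimate of the spread over all groups, although the LPS groups varied more. Of the signalling list and of the like genes, 1 gene each is not reported here. Chromatin data were not used here.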

Additional observations from a re-analysis of the deposited data

Results flagged for a closer look

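The response to LPS differed between KO and WT cells by the test of the interaction for 5 of the 8 genes, where 17.4% of all genes tested were called. The difference of the log2 responses, KO minus WT, was 1.56 for Il6, 1.40 for Lif and 1.31 for Osm, each with the larger rise in KO cells. It was -0.78 for Il6ra, with the larger fall in KO cells, and -0.35 for Il10rb, with the smaller rise in KO cells. For Lif, Osm and Il6ra the unstimulated genotypes were apart and the LPS groups overlapped. For Il6 they were apart both before and after LPS, and for Il10rb they overlapped before LPS and were apart after it. The Il6 interaction was not called with limma on log2(TPM + 1). That of Il10rb lost its call on leaving out any of the single libraries named above.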

How the results depend on the processing

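The count of members called was 6, 6, 5, 2 and 5 in WTL against WT, KOL against KO, KO against WT, KOL against WTL and the interaction. Requiring at least 10 counts in every library left 6 members and gave 3 in KO against WT and 0 in KOL against WTL, where Il6 and Il10, the 2 called before, were no longer tested. With limma on log2(TPM + 0.1) the count was 1 in KOL against WTL and 3 in the interaction, and without a fold cutoff it was 5 in KOL against WTL. Leaving out 1 library at a time gave 5 to 6, 6 to 6, 4 to 5, 2 to 2 and 4 to 5 calls, and a difference of the log2 Il6 to Il10 ratio of 0.10 to 0.44. Unscaled TPM moved the median log2 fold change of all genes to -0.438 in WTL against WT, -0.380 in KOL against KO and -0.104 in KO against WT. Directions turned for Osm in WTL against WT (-0.46, -0.51 and -0.46 with limma on log2(TPM + 1), log2(TPM + 0.1) and without a filter, and -0.13 to 0.22 on leaving out libraries), Il10rb in KOL against KO (-0.12 in all 3 limma fits), Il6st in KO against WT (-0.20 in the 3 fits, -0.06 with TPM scaled to a common median, -0.02 to 0.05 on leaving out libraries), Il10ra in KO against WT (0.02 with scaled TPM) and the Il10 interaction (-0.80 with and without a filter, -0.81 with scaled TPM). The cause was not tested. Of all values for single genes, 679 kept direction and side of the threshold, 30 lost it, 6 gained it and 18 turned. With the replicate number as a block the counts of calls were 6, 6, 5, 2 and 5 and no call changed; Il6 had 7.96 in WTL against WT. Same-numbered libraries deviated together in 1 of 18 pairs (r over 0.1; median -0.032), so the numbers were not read as pairs. At this depth Il10 in unstimulated cells rests on 10 counts in WT and 1 in KO, which limits its folds.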

Other observations

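Around the 8 genes, the 3 nearest protein-coding genes on each side made 42 neighbours, of which 28 were tested. In KO against WT 6 were higher and 4 lower, and in KOL against WTL 4 were higher and 3 lower. These shares are near those of all genes tested, of which 34.5% and 25.0% were called. Scn4b, a sodium channel subunit gene 99.7 kb from Il10ra, had a mean of 17.7 normalized counts in WT and 1266 in KO (log2 fold change 6.15, SE 0.14, adjusted p = 1.2e-12 by edgeR), and 27.8 in WTL and 644 in KOL (4.52). Il10ra itself had -0.02 and -0.22 in the same comparisons. Castor1, 14 kb from Osm and 35.1 kb from Lif, was higher in KO than in WT (81.9 to 168, log2 fold change 1.03, adjusted p = 3.0e-04) and in KOL than in WTL (48.2 to 268, 2.45, adjusted p = 1.8e-07), whereas Osm and Lif were lower in KO and were not called after LPS. These neighbours were named after their values were seen.

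Il10rb lies among interferon receptor genes, 0.575 kb from Ifnar2. Ifnar2, a chain of the type I interferon receptor, was lower in KOL than in WTL (1399 to 900, log2 fold change -0.63, adjusted p = 3.0e-05), and Il10rb had -0.41. Ifnar1 (0.65) and Ifngr2 (0.42), on the other side of Il10rb, were higher in KO than in WT, where Ifnar2 had -0.11 and Il10rb -0.06. Beside Il10, Mapkapk2, a kinase gene 28.7 kb away, rose with LPS in WT (1.68) and KO cells (1.46) and had -0.30 in KOL against WTL, where Il10 had -1.22.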
